A study of Mus musculus and Homo sapiens with 14 samples.

Results

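The comparison set RN2c cells carrying a guide RNA against Mef2c beside RN2c cells carrying a control guide against Rosa26. All 4 libraries of these groups entered it, 2 of each, out of 14 samples in the series. Genes were members where their mean over the 4 libraries was at least 10 normalized reads, which kept 10956 of the 20682 genes listed. RN2c is the RN2 leukemia, a mouse acute myeloid leukemia driven by an MLL-AF9 fusion and mutant Nras, made to express the Cas9 nuclease. Both groups shared this background and the lentiviral delivery of a guide, and both were collected on day 2 after infection. Cutting the Rosa26 safe-harbor locus gives a control for the DNA break itself. The sgMef2c libraries carried different guides, called guide 1 and guide 2, so each guide is 1 library and the spread within this group holds the difference between the guides. The cells are 1 line, and no label tells whether the libraries of one group were grown as separate cultures. The p-values therefore cover the spread among these libraries alone, which may be technical. PolyA RNA was sequenced, and each value is the read count of a gene after division by a size factor of that library. In a bulk sample, fewer cells of a type and less RNA per cell cannot be told apart.

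MEF2C is a transcription factor of the MADS-box family that binds an AT-rich DNA motif. Class IIa histone deacetylases bind MEF2 factors and repress their targets, and salt-inducible kinases phosphorylate these deacetylases so that they leave the nucleus. In blood formation MEF2C is known for B cell development and for favoring monocyte over granulocyte fate, and in acute myeloid leukemia with MLL fusions it is highly expressed.

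Between 20607377 and 24275290 reads were recovered in each library. All 14 marker genes of the labelled myeloid leukemia were measured, among them Ptprc at 10758 and 10822 normalized reads in the sgRosa26 libraries and 11077 and 11447 with guides 1 and 2. Of the defining genes of other blood cells, Cd3e, Cd4, Ms4a1, Ncr1, Gzma, Slc4a1 and Pf4 were at 0 in all 4 libraries (a 0 allows up to 3 reads). Other markers of these cells were not at 0. The summed level of the T cell list was 12.9 and 15.7 in the controls and 25.97 and 28.002 with guides 1 and 2, with 0 of 1 tested markers called, and that of the B cell list 29.7 and 26.1, then 38.5 and 26.9, with none tested. The erythroid list summed to 28.7 and 27.2, then 28.7 and 38.8, with 0 of 2 called. The megakaryocyte list summed to 248 and 317, then 247 and 236, with 1 of 4 called, Vwf, which was lower (-0.95) and lost without sgRosa26 library 2 (adjusted p = 0.0505). Signs of RNA quality from mitochondrial or non-coding transcripts could not be read, since 0 of 18 and 0 of 10 such symbols stood in the table.

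Mef2c itself was read first. It stood at 8395 and 8369 normalized reads in the sgRosa26 libraries, at 3892 with guide 1 and at 4021 with guide 2. The sgMef2c libraries lay close together and well below both controls (log2 change -1.08, standard error 0.04, limma adjusted p = 7.97e-05). Here and below, "from" is followed by the sgRosa26 libraries 1 and 2 and "to" by guides 1 and 2, all in normalized reads, a signed or bare decimal in parentheses after a gene is its log2 change (sgMef2c minus sgRosa26, on log2(value + 1)), and adjusted p-values are limma's unless another tool is named. Reads over a cut gene count transcripts with and without an edit, so this level is not that of the protein. Mef2c lies on chromosome 13 of GRCm38 (chr13:83504034-83667080, plus strand, protein-coding).

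No MEF2 gene was called higher. Mef2d fell from 4972 and 4298 to 3689.8 and 3433 (-0.38, adjusted p = 0.00874). Mef2a stood at 1343 and 1348 with sgRosa26, at 1290.2 with guide 1 and at 1082 with guide 2, and did not pass (adjusted p = 0.127). Mef2b was at 0 in 3 of the libraries and at 0.895 with guide 1, which is 1 read.

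Among the class IIa histone deacetylases, Hdac9 changed most. It stood at 268 and 251 in the controls and fell to 139.7 and 146 (-0.85, SE 0.11, adjusted p = 0.00172). Hdac5 was called lower at -0.14, but the call was lost without any 1 of the 4 libraries (adjusted p from 0.116 to 0.167). Hdac4 (0.08) and Hdac7 (-0.11) did not pass. Of 10 genes of the salt-inducible kinases, their upstream kinase complex and the CRTC coactivators, 4 were called higher (16.3% over all genes). They were Sik1 (0.52), Sik2 (0.29), Stradb (0.43) and Cab39 (0.20), and none kept its call without each library in turn. That count was 2, 0, 3 and 1 without sgRosa26 library 1, sgRosa26 library 2, guide 1 and guide 2. Sik3 did not pass (0.09).

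The nearest measured genes on chromosome 13 were then read, 5 on each side. Tmem161b, the closest, lies 555.2 kb beyond Mef2c and held 456 and 453 reads in the controls and 450.4 and 432 with guides 1 and 2. Of the 10 neighbors, 8 did not pass, while 31.4% of all genes tested did. The other two were called lower, and each call depended on single libraries. Polr3g (-0.34) had an adjusted p of 0.121 without sgRosa26 library 1 and 0.128 without guide 2. Rasa1 (-0.22) had 0.13 without sgRosa26 library 2 and 0.129 without guide 2. The plot of change by distance shows each neighbor beside Mef2c.

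**Figure D1:**
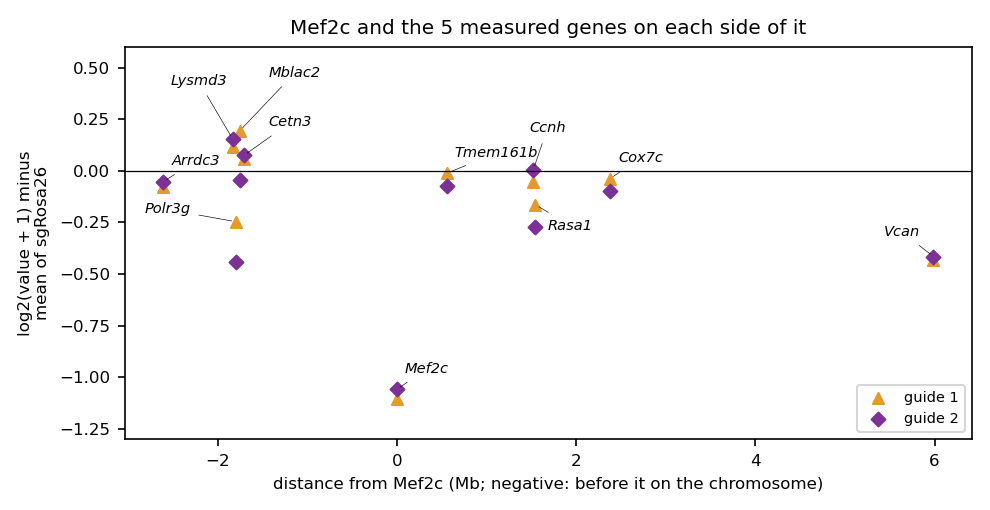
Change of Mef2c and the 5 measured genes on each side of it, per guide, against distance in megabases. The y axis is log2(value + 1) minus the mean of the sgRosa26 libraries, triangles are guide 1 and diamonds guide 2. Mef2c lies at -1.11 and -1.06, and the neighbors lie between -0.44 and 0.19.

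The MEF2 consensus motif was searched in RefSeq promoters (GRCm38.p6), each of 250 bases before an annotated start of a gene and 50 bases after it. The consensus reads the same on both strands in this form, so 1 search covers both. Of the genes tested, 8892 had a promoter in the table. The motif stood near 28 of 1355 genes that fell (2.07%, 95% Wilson interval 1.43% to 2.97%). It stood near 21 of 1440 that rose (1.46%, 0.956% to 2.22%) and near 164 of all 8892 (1.84%). Over all 27025 genes of the promoter table the share was 3.70%. These intervals overlap, and motifs farther away, in introns or enhancers, were not searched. Named genes with the motif included Hdac5 and Tomm5, both called lower, Ccnb2, called higher, and Mef2a, which did not pass. Their sequences are not printed. The 250 bases before the start are printed for 4 other named genes that hold the motif, picked with their changes known. Jun is known from other cells for a MEF2 site near its start, Cpa3 and Ghr are among the larger falls, and Erg rose. The genes lie on the minus strand, the sequences read 5′ to 3′ toward the start, and capitals mark the motif.
Jun (chr4:95052223-95052472): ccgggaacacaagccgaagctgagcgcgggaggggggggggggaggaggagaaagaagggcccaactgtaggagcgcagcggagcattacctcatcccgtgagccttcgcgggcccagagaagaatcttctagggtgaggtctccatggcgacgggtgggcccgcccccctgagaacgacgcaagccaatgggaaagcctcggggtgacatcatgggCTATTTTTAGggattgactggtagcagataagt
Cpa3 (chr3:20242182-20242431): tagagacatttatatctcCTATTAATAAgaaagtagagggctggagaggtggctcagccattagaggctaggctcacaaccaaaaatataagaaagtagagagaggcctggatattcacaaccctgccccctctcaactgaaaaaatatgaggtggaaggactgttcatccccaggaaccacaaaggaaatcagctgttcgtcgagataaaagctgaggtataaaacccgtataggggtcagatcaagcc
Ghr (chr15:3581843-3582092): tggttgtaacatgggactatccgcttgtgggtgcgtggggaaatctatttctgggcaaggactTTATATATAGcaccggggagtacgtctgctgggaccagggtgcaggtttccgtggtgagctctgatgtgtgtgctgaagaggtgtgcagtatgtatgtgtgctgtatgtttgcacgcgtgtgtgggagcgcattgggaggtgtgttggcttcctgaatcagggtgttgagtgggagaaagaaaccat
Erg (chr16:95530366-95530615): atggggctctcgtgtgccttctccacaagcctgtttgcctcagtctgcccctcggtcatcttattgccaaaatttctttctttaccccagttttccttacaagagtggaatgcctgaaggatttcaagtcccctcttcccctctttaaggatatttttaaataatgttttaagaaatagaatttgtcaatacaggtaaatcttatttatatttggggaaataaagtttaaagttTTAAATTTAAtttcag

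The Jun motif starts 33 bases before the start used for its promoter, that of Erg 16, that of Ghr 187 and that of Cpa3 232. For Erg and Ghr this start lies inside the gene's GENCODE span (chr16:95359169-95586593 and chr15:3317760-3583492), not at its first base. Jun, an AP-1 subunit, stood at 223 and 183 normalized reads in the controls and at 97.6 and 90.5 with guides 1 and 2 (-1.10, SE 0.14, adjusted p = 0.00198). Erg, an ETS factor of blood stem cells, moved the other way, from 1225 and 1290.2 to 1801 and 1978 (0.59, adjusted p = 0.000889). The growth hormone receptor Ghr fell from 107 and 162 to 44.8 and 25.8. Erg has 3 promoters in the table and Ghr 2, and the motif stands in 1 of each. Of 16 genes known from other cells as MEF2 targets, 5 fell, Bcl2, Hdac9, Fos, Jun and Junb, and 3 rose, Cited2, Gadd45b and Rgs2 (Junb, Gadd45b and Rgs2 were chosen after their values were seen). The call of Rgs2 was lost without sgRosa26 library 2 (adjusted p = 0.141) and without guide 2 (0.142). The median of the 16 was -0.20, against 0.00016 for all genes tested, of which 16.3% were called higher and 15.1% lower.

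Across all genes, 3442 of 10956 passed the test (31.4%), 1783 higher (16.3%) and 1659 lower (15.1%) with sgMef2c. In each of the 3442 both guides lay beyond both controls, a pattern that 7727 genes (70.5%) showed whether or not they passed. Most changes were small. The median absolute change over all genes was 0.134 on the log2 scale with guide 1 and 0.170 with guide 2, against a median difference of 0.0706 between the sgRosa26 libraries and 0.0734 between the guides. Without guide 2 the number past the test was 1818, and 1804 of these were among the 3442. Without sgRosa26 library 2 it was 2162 and without sgRosa26 library 1 it was 2231, so each of these libraries moved the count by over 1.5 times.

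Read singly, guide 2 was farther from the controls. With guide 1, 188 genes were over 2-fold higher (1.72%) and 170 over 2-fold lower (1.55%). With guide 2 there were 281 (2.56%) and 277 (2.53%). Both guides passed 2-fold together for 171 genes in the upward direction and 143 downward, and no gene passed it in opposite directions. As a measure of spread, the sgRosa26 libraries differed over 2-fold from each other in 94 genes (0.858%), and the guides from each other in 75 (0.685%). These compare single libraries, whereas the guide counts use the mean of the sgRosa26 libraries. Among 9910 genes with a mean of at least 50, 109 were over 2-fold higher and 81 lower with both guides. There the sgRosa26 libraries differed over 2-fold in 16 and the guides in 13. Among the genes that rose, guide 2 lay above guide 1 in 1560 (87.5%), and among those that fell it lay below in 1336 (80.5%). The Mef2c transcript did not follow this order, at -1.11 with guide 1 and -1.06 with guide 2. The difference between the guides, 1 library each, was not tested.

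**Figure D2:**
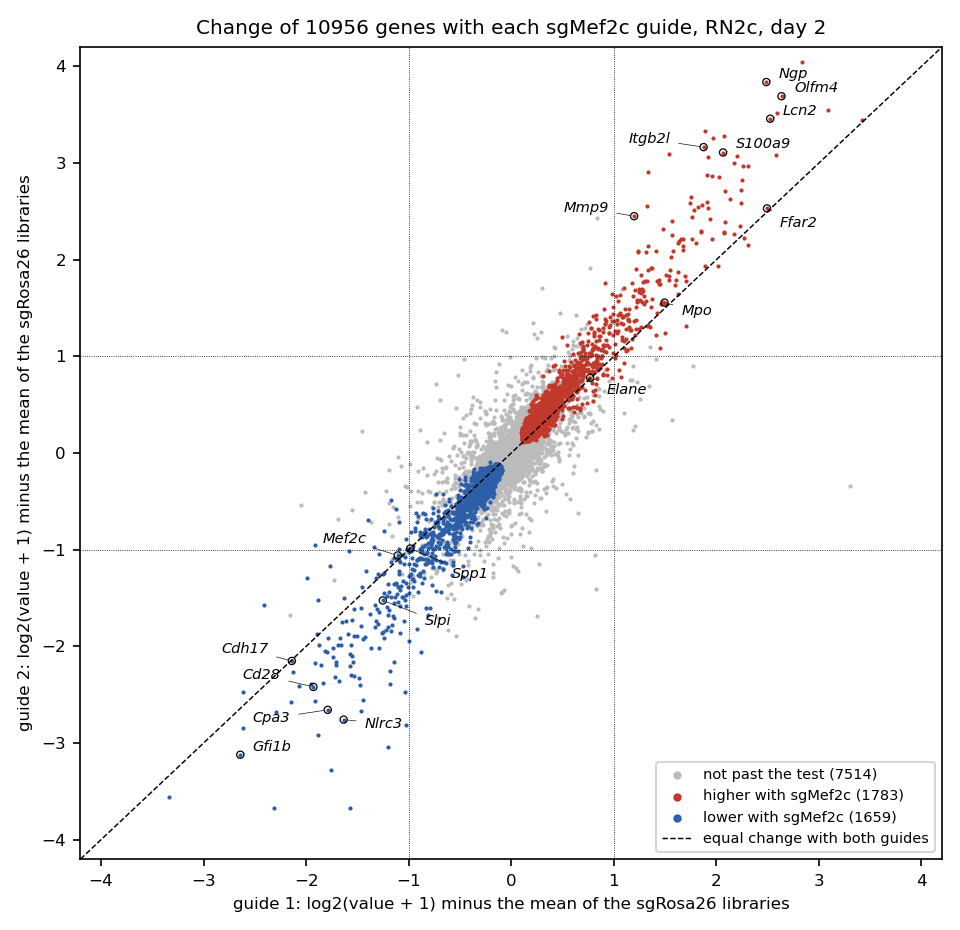
Change of each of 10956 genes with guide 1 (x axis) and guide 2 (y axis), both as log2(value + 1) minus the mean of the sgRosa26 libraries, which both axes share. Red and blue points are genes called higher (1783) and lower (1659), the dashed line marks equal change and dotted lines 2-fold. Ngp lies at 2.49 and 3.84, above the line, while Ffar2, Mpo, Elane and Spp1 lie near it.

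Ranked by the weaker guide, the rises were led by Olfm4, Lcn2 and Ffar2 and included genes outside the granules. Ffar2, a receptor for short-chain fatty acids on neutrophils, went from 30.7 and 30.3 to 176 and 181, nearly alike with both guides. Prom1, the stem cell surface protein prominin 1, rose from 158 and 192 to 742 and 921 (2.24, SE 0.13, adjusted p = 0.000294). Ces1d, a carboxylesterase, rose from 93.9 and 138 to 542 and 755, and Mogat2, a monoacylglycerol acyltransferase, from 109 and 156 to 556 and 855. Serpina11, a serpin, rose from 28.7 and 27.2 to 134 and 146. The ranking took only genes whose groups were apart, so both guides lay above both controls in each.

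Among the largest falls were those of regulators and surface proteins. Gfi1b, a transcriptional repressor of erythroid and megakaryocytic cells, stood at 216 and 231 in the controls, at 34.9 with guide 1 and at 24.8 with guide 2. Cdh17, a cadherin, fell from 439 and 673 to 123 and 122, and the ephrin receptor Epha7 from 65.3 and 101 to 17.9 and 16.2. C3ar1, the receptor of the complement fragment C3a, fell from 80.1 and 99.3 to 23.3 and 23.7. Rgs1, a regulator of G protein signaling, fell to 22.4 and 20.5 from controls that themselves differed, at 56.4 and 113. The GTPase Gem fell from 104 and 74.2 to 24.2 and 20.5.

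Groups of genes with a shared role are described next by their counts past the test and by the median log2 change of their measured members. The background to read them against is the 31.4% of all genes called, nearly evenly split, and a median of 0.00016.

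**Figure D3:**
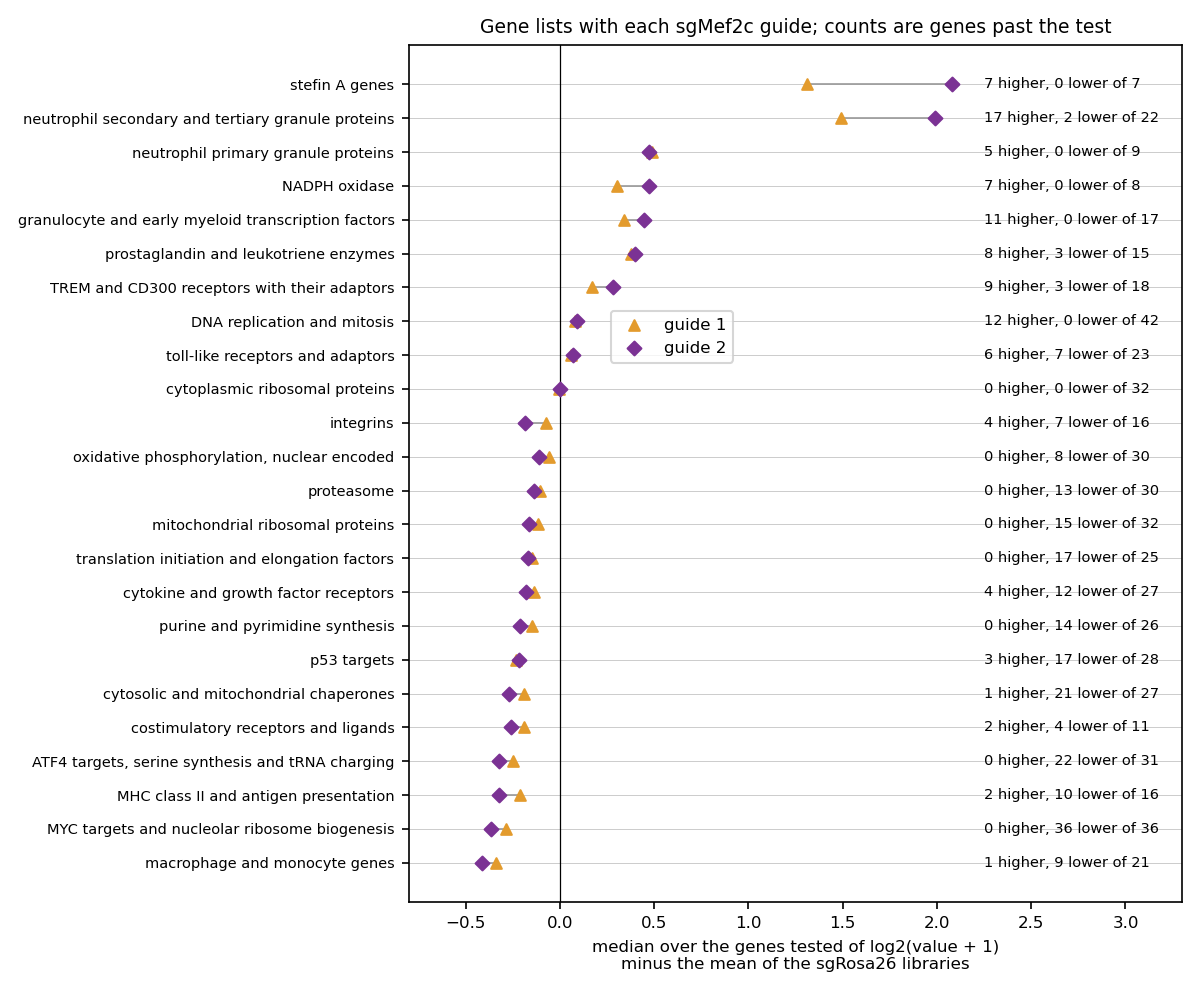
Median change of the measured members of 24 gene lists with guide 1 (triangles) and guide 2 (diamonds), as log2(value + 1) minus the mean of the sgRosa26 libraries, with the number of members past the test in each direction. Stefin A and secondary granule genes lie at 1.31 to 2.08, primary granule genes at 0.49 and 0.47, and 36 of 36 MYC and nucleolar genes are lower.

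Neutrophil granules form in order during maturation, primary granules at the promyelocyte stage and secondary and tertiary granules later. Of 9 measured primary granule genes, 5 rose and none fell, with a median of 0.49 with guide 1 and 0.47 with guide 2. Myeloperoxidase, Mpo, stood at 7713 and 9269 in the controls, at 23827 with guide 1 and at 24864 with guide 2 (1.53, SE 0.08, adjusted p = 0.000294). Neutrophil elastase, Elane, went from 28106 and 30828 to 50171 and 50476, and proteinase 3, Prtn3, from 21554 and 23166 to 31396 and 31016. In these 3 genes the guides lay closer to each other than either lay to a control. Prss57, a serine protease of these granules, rose further, from 183 and 204 to 851 and 1199. The fifth, Ms4a3 (0.21, chosen after its values were seen), was lost without sgRosa26 library 1 (adjusted p = 0.052). Ctsg, which encodes cathepsin G, did not pass.

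Of 22 measured genes listed for secondary and tertiary granules, 17 rose and 2 fell. Their median was 1.49 with guide 1 and 1.99 with guide 2. The list also holds the leukotriene receptor gene Ltb4r1, counted again among the chemoattractant receptors. Olfactomedin 4, Olfm4, stood at 2165 and 2313 in the controls, at 13908 with guide 1 and at 28907 with guide 2. Ngp, the neutrophilic granule protein, followed the same order at 1104 and 1601, 7459 and 19023, as did lactoferrin, Ltf, at 129.5 and 184, 387 and 911. In all 3 guide 2 held over 2 times the reads of guide 1. Ngp and Ltf were named for the size of this gap, so it does not set the group apart from primary granule genes. Among the latter, Prss57 also stood higher with guide 2 (851 and 1199). Itgb2l, a beta 2-like integrin subunit, went from 40.5 and 47.0 to 163 and 399.6. Lipocalin 2, Lcn2, which binds bacterial siderophores, went from 387 and 437 to 2371 and 4528. Mmp9, a matrix protease of tertiary granules, went from 65.3 and 101 to 188 and 449 (1.82, SE 0.39, adjusted p = 0.0128), and its call was lost without sgRosa26 library 1 (0.0538).

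Other members with the lowest p differed less between the guides. Ceacam1, an adhesion receptor, rose from 1212 and 1229.6 to 3578 and 4550.3, and Wfdc21, a small secreted protein with a WAP domain, from 140.4 and 154 to 429.8 and 509. The leukotriene B4 receptor Ltb4r1 rose from 488 and 572 to 1438 and 1780.3. Against the group, Slpi, the secretory leukocyte protease inhibitor, fell from 115696 and 107050.0 to 46720.4 with guide 1 and 38675 with guide 2 (-1.39, SE 0.09, adjusted p = 0.000294). Both guides lay far below both controls, and no other gene lost as many normalized reads. Hp, haptoglobin, chosen after its values were seen, was called lower at -0.13, and that call was lost without sgRosa26 library 1 (adjusted p = 0.116), sgRosa26 library 2 (0.175) or guide 2 (0.116). With Slpi among them, the summed reads of all 26 listed genes were 193774 and 182985 in the controls and 166223 and 203017 with guides 1 and 2, with no common direction.

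The S100 genes, which encode small calcium-binding proteins, split, with 4 of 8 called higher and 3 lower. S100a8 stood at 10120.3 and 10348 in the controls, at 41547 with guide 1 and at 74208 with guide 2. S100a9, whose protein pairs with that of S100a8 in neutrophils, stood at 8294 and 9358, 36879 and 76001. S100a11 rose less, from 3373 and 3314 to 5324 and 5845 (0.74, adjusted p = 0.000349).

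The S100 genes of the other direction were S100a4, S100a6 and S100a10. S100a4 fell from 753 and 892 to 317 and 202, S100a6 from 471 and 561 to 240.0 and 221 and S100a10, the partner of annexin A2, from 1273 and 1247 to 789 and 708. S100a1 (0.33) was called higher, a call lost without any 1 library (adjusted p from 0.0743 to 0.112), and S100a13 (0.22) did not pass. In the 6 other called S100 genes guide 2 was the farther guide.

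The stefin A genes encode small inhibitors of cysteine cathepsins and lie in a cluster on mouse chromosome 16. All 7 measured members rose, also when any 1 library was left out, and the summed reads of all 8 listed genes, 1 of them below the filter on low values, were 50588 and 47283 in the controls, 106669 with guide 1 and 166687 with guide 2. Stfa1 stood at 21263 and 18483, 39358 and 56651, and BC100530 at 17258 and 17014, 39891 and 63984. Fold changes were larger in 3 members with fewer reads. Stfa2 went from 209.6 and 252 to 870.3 and 1926 (2.49), Stfa2l1 from 407 and 456 to 1624 and 3159 (2.39) and BC117090 from 22.7 and 25.1 to 118 and 194 (2.61). The changes of Stfa1, BC100530, Stfa3 and Gm5483 were 1.25, 1.56, 1.70 and 1.31. These genes are near-identical copies, so how reads were divided among them is uncertain.

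**Figure D4:**
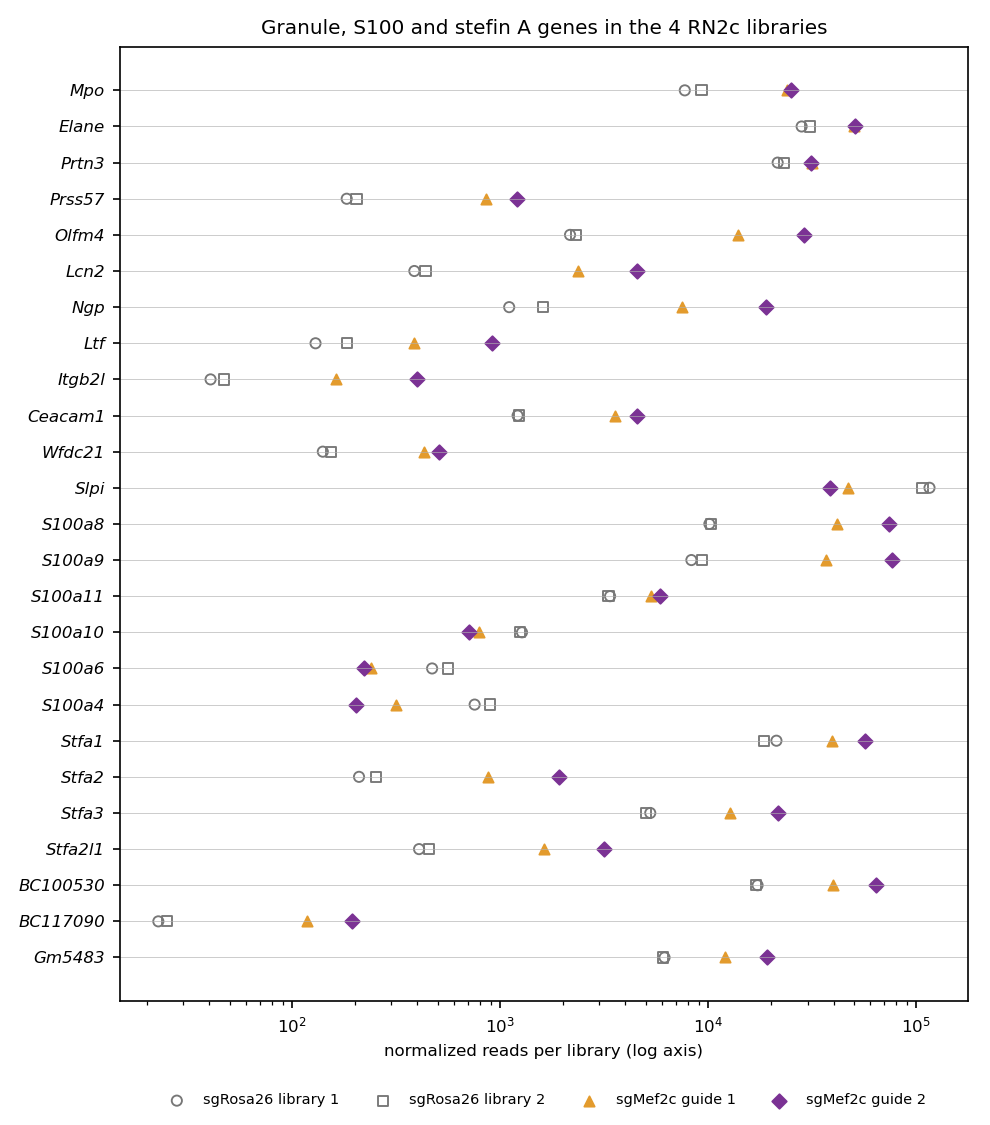
Normalized reads (log axis) of 25 granule, S100 and stefin A genes in the 4 libraries, open symbols for sgRosa26, triangles for guide 1 and diamonds for guide 2. Guides coincide for Mpo, Elane and Prtn3, guide 2 lies right of guide 1 for Olfm4, Ngp and Stfa2, and Slpi, S100a4, S100a6 and S100a10 lie left of the controls.

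The NADPH oxidase makes the oxidative burst of phagocytes from a membrane core and cytosolic subunits. Of its 8 measured genes, 7 rose and none fell, with a median of 0.30 with guide 1 and 0.47 with guide 2. Hvcn1, the proton channel that balances the charge the oxidase moves, rose most, from 180.0 and 184 to 638 and 825 (1.99, SE 0.13, adjusted p = 0.000294). Of the membrane core, Cyba rose from 5149.7 and 5302 to 6475 and 7332 and Cybb from 6349 and 5463 to 7253 and 8088. The cytosolic subunit Ncf4 (0.56) and the GTPase Rac2 (0.58) rose, and Ncf1 (0.20) did not pass. The call of Rac1 (0.15) was lost without sgRosa26 library 1 (adjusted p = 0.0792), sgRosa26 library 2 (0.0994) or guide 2 (0.0625).

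Enzymes of eicosanoid synthesis rose in 8 of 15 cases and fell in 3 (median 0.39). On the leukotriene side, Lta4h, which makes leukotriene B4, stood at 15023 and 16639.9 in the controls and rose to 30575 and 37376, and 5-lipoxygenase, Alox5, rose from 3751 and 3885 to 5707 and 7318. Ptgs1, cyclooxygenase 1, rose from 2596 and 2757 to 3669 and 4063. Of the prostaglandin enzymes that fell, Hpgds, the hematopoietic prostaglandin D synthase, went from 61.3 and 64.8 to 25.1 and 25.8 and Hpgd, which degrades prostaglandins, from 6777 and 11694 to 3762 and 3269 (both chosen after their values were seen). The controls differed for Hpgd. Both lay above both guides, and the groups were apart in every gene past the test. The remaining fall, of the prostaglandin E synthase gene Ptges3 (-0.20, also chosen so), was lost without sgRosa26 library 1 (adjusted p = 0.0934) or guide 2 (0.071).

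Among genes of redox and iron handling, 4 of 25 rose and 7 fell (median 0.01), the latter 4 without sgRosa26 library 2 or guide 2. Slc40a1, the iron exporter ferroportin, stood at 588 and 672 in the controls and rose to 2272 and 3092 (2.07, SE 0.14, adjusted p = 0.000294). Glutathione reductase, Gsr, rose from 32128 and 31539 to 47136 and 50589, and the microsomal glutathione transferases Mgst1 (1.20) and Mgst2 (0.50) rose too. Lysosomal genes went in both directions, 8 of 34 higher and 9 lower (median -0.01). Cathepsin L, Ctsl, fell from 1286 and 1329.9 to 762 and 674. Complement component C3 rose from 3439 and 4549 to 15188 and 21155.

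Transcription factors of granulocytes and early myeloid cells rose in 11 of 17 cases, and none fell (median 0.38). Gfi1, a repressor needed for neutrophil formation, stood at 2844 and 3304 in the controls and rose to 5703 and 6663 (1.01, SE 0.09, adjusted p = 0.000631). Spi1, which encodes PU.1, rose from 5792 and 5740.1 to 7349.9 and 8066. The list also held Per3, a clock gene, which rose from 367 and 329 to 708 and 704, and the clock gene Per2, counted among CREB targets, rose from 388 and 400.4 to 826 and 1002.

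Of 7 genes listed with the CEBP family, some members of which drive granulocyte maturation, 2 were called higher and 2 lower (median -0.01). The list holds Ddit3 and Cebpz beside Cebpa, Cebpb, Cebpd, Cebpe and Cebpg. Cebpe, the factor of secondary granule genes, stood at 2698 and 2988 in the controls and rose to 6163 with guide 1 and 7619.7 with guide 2. Cebpd rose from 1155 and 1143 to 1737 and 1997. Cebpa held 3721 and 3765 reads in the controls and 3726 and 3437 with the guides (adjusted p = 0.349), and Cebpb (0.35) and Cebpg (-0.01) did not pass either. Ddit3 (-0.33) and Cebpz (-0.18) were called lower, and both calls were lost without sgRosa26 library 1 (adjusted p = 0.127 and 0.218), without guide 1 (0.081 and 0.0696) and without guide 2 (0.161 and 0.146), that of Ddit3 also without sgRosa26 library 2 (0.0981).

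Of 10 measured transcription factors of monocytes and dendritic cells, 4 fell and 1 rose (median -0.25). Irf8, required for both lineages, stood at 3529 and 2765 in the controls, at 1841 with guide 1 and at 1377 with guide 2 (-0.97, SE 0.15, adjusted p = 0.00393). Zeb2 fell from 6340.2 and 6678 to 4987 and 4502. The calls of Relb (-0.50), Tcf4 (-0.20, chosen after its values were seen) and the riser Id2 (0.53) depended on single libraries. Without guide 2 the adjusted p was 0.108, 0.177 and 0.072. Relb was also lost without sgRosa26 library 1 (0.0772), sgRosa26 library 2 (0.126) or guide 1 (0.096), and Tcf4 without sgRosa26 library 1 (0.197).

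Regulators of erythroid, megakaryocytic and mast cells fell in 4 of 10 cases and rose in 1 (median -0.28), with Gfi1b first. Zfpm1, which encodes the GATA cofactor FOG1, fell from 192 and 178 to 94.0 and 92.6, with the guides nearly alike. Gata2 fell from 1429.8 and 1536 to 1156 and 1166 (-0.35) and Lmo2 from 13927 and 13825 to 10996 and 10272 (-0.38). The 1 rise, of Nfe2 (0.21, chosen after its values were seen), was lost without sgRosa26 library 2 (adjusted p = 0.0769) or guide 2 (0.0598). Globin genes and Slc4a1 were at 0 in every library.

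Mast cell, eosinophil and cytotoxic markers moved beside these. Cpa3, the mast cell carboxypeptidase, stood at 646 and 1623 in the controls, which differed by over 2-fold, and fell to 295 and 162. Hdc, the histidine decarboxylase of histamine-making cells, rose from 1937 and 2199.8 to 5056 and 6373 (1.46, SE 0.11, adjusted p = 0.000417). Of 11 mast cell and basophil markers, Cma1, Tpsab1, Tpsb2, Fcer1a and Mcpt1 were at 0 in all libraries, and the summed level of the list was 2908 and 4207 in the controls and 5687 and 6847 with guides 1 and 2. Both tested eosinophil markers rose, the lectin gene Siglecf from 128 and 145 to 302 and 355 and the granule protein gene Prg3 from 7.91 and 3.14 to 27.8 and 35.5, while Ear1, Ear2 and Il5ra stood at 0. The 9 genes of that list summed to 139 and 153 in the controls and 338 and 408 with the guides. Both tested natural killer cell markers were called higher. Nkg7, a granule gene of cytotoxic lymphocytes, rose from 72.2 and 82.6 to 235 and 259.6, and Prf1, the perforin gene, went from 2.97 and 6.27 to 17.0 and 31.2, a call lost without sgRosa26 library 1 (adjusted p = 0.0516) or guide 2 (0.0944). The 8 genes of that list summed to 88.0 and 101 in the controls and 256 and 293 with the guides, with Ncr1, Gzma and Gzmb at 0. In both controls Prg3 and Prf1 were below 10, and they passed the filter on low values only through the sgMef2c libraries. A marker as low that did not rise would not have been tested, so the eosinophil and natural killer cell counts lean toward rises. The part of such cells in the changes described was not tested.

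**Figure D5:**
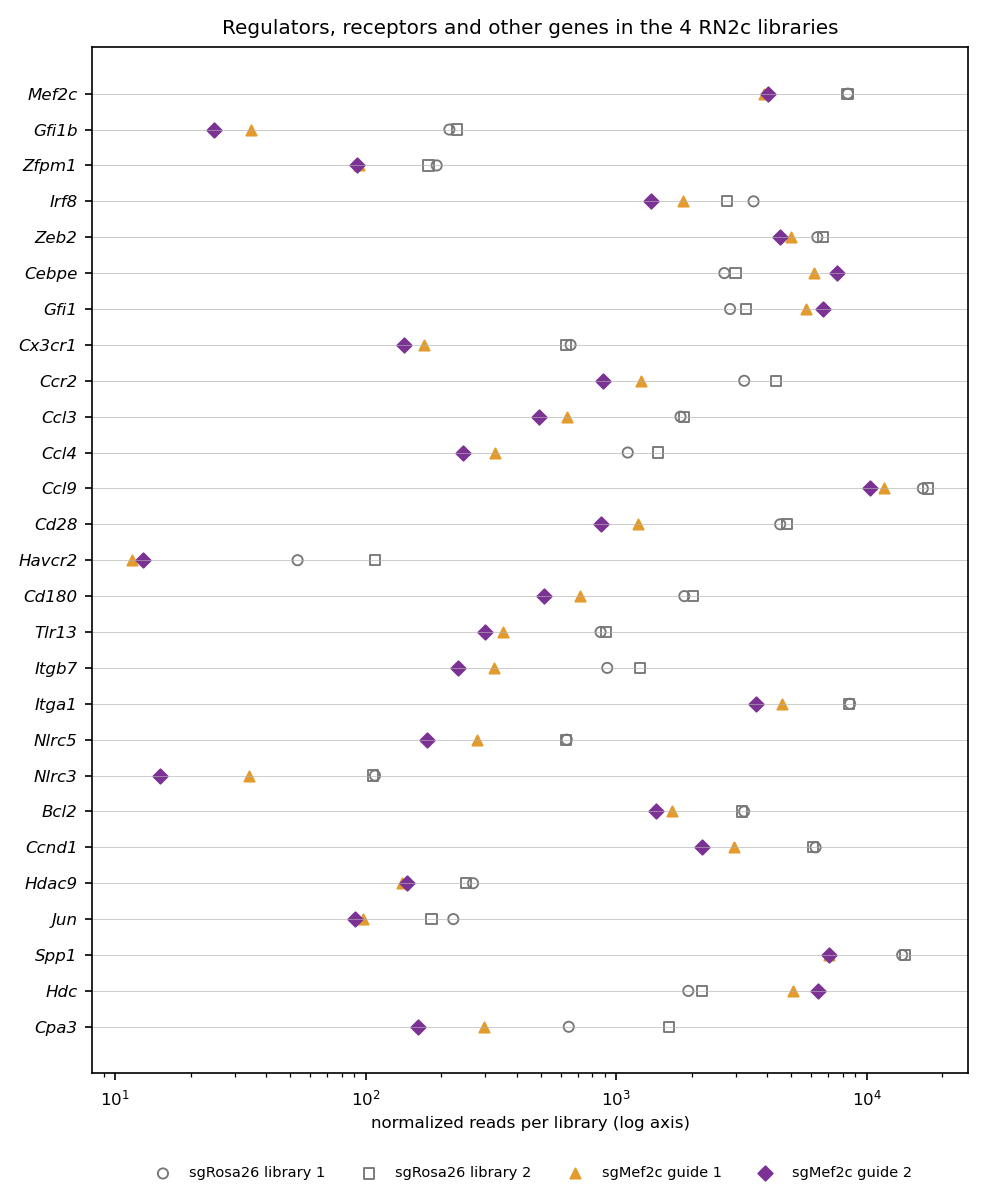
Normalized reads (log axis) of 27 regulators, receptors and other genes in the 4 libraries, open symbols for sgRosa26, triangles for guide 1 and diamonds for guide 2. Cebpe, Gfi1 and Hdc lie right of the controls and the other 24 genes left of them, with the widest control gaps for Cpa3 and Havcr2.

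Genes of macrophages and monocytes fell in 9 of 21 cases and rose in 1, Ly6c2 (0.28, chosen after its values were seen), whose call was lost without sgRosa26 library 1 (adjusted p = 0.0893) or sgRosa26 library 2 (0.0747) and after quantile normalization (0.434). Their median was -0.34 with guide 1 and -0.42 with guide 2. Ccr2, the receptor by which monocytes leave the marrow, stood at 3239 and 4328 in the controls, at 1259 with guide 1 and at 886 with guide 2. The fractalkine receptor Cx3cr1 fell from 657 and 632 to 170.1 and 142, and the lysosomal glycoprotein gene Cd68 from 2399 and 2472 to 1653 and 1512. In these genes, as in every gene past the test, both guides lay beyond both controls. The integrin subunit Itgax (-0.90) and the lipid receptor Trem2 (-1.46), both chosen after their values were seen, fell as well.

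Chemokine genes fell in 3 of 6 measured cases and rose in 1 (median -0.29). Ccl3 stood at 1804 and 1862 in the controls and fell to 633 and 492 (-1.71, SE 0.11, adjusted p = 0.000294). Ccl4, its neighbor, fell from 1110.4 and 1468 to 329 and 243, and Ccl9 from 16729.5 and 17579.8 to 11697 and 10281. Ccl6 went up, from 348 and 370.1 to 626 and 759, and Ccl2 and Ccl25 did not pass. These counts were the same without any 1 library. Among 14 receptors of chemokines and attractants, 6 rose and 5 fell (median 0.02), the latter 3 without sgRosa26 library 2. The risers, beside Ffar2 and Ltb4r1, included C5ar2 (1.94), a receptor of complement C5a, and S1pr4 (1.21), a sphingosine 1-phosphate receptor, both chosen after their values were seen.

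Integrin genes, 16 measured, rose in 4 cases and fell in 7 (median -0.07). Of the subunits of beta 2 and beta 2-like integrins, Itgb2 rose from 13642 and 15522 to 23186 and 27732, and Itgb2l rose as above. Itgal (0.54, chosen after its values were seen) and Itgam (0.33) were called higher. The call of Itgam was lost without sgRosa26 library 1 and after quantile normalization (adjusted p = 0.0519). Itgax, another of these subunits, fell, as given above. Itgb7, which binds mucosal addressin, fell from 919.6 and 1246 to 326 and 233. The collagen-binding Itga1 fell from 8571 and 8483 to 4597 and 3604, the laminin-binding Itga6 from 6645 and 7339 to 4198 and 3557 and Itgb3 from 1926 and 2269.9 to 1225 and 1164.

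Costimulatory receptors and ligands gave 4 falls and 2 rises among 11 (median -0.22). Cd28, best known from T cells, stood at 4508 and 4815 in the controls, at 1223 with guide 1 and at 870.2 with guide 2, while the T cell genes Cd3e and Cd4 stood at 0. Cd244, which encodes the receptor 2B4, fell from 402 and 458 to 219 and 186, and Havcr2, which encodes TIM-3, from 53.4 and 109 to 11.6 and 12.9. Tnfrsf14, the herpesvirus entry mediator, rose from 329 and 365 to 601 and 624. Its ligand gene Tnfsf14 (0.57) rose and Cd48 (-0.35) fell, both chosen after their values were seen. Over the 21 genes of the list, with the 10 below the filter on low values, the summed reads were 7908 and 8422 in the controls and 4508 and 4114 with the guides. The group means of Cd28 alone differed by -3615 reads, so the sum mostly follows that gene.

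Lectins, Fc receptors and paired receptors moved in both directions. Of 16 C-type lectins and Fc receptors, 5 rose and 6 fell (median -0.07), and without sgRosa26 library 2, guide 1 or guide 2 the number lower was 3. Clec4a2 rose from 825 and 990.1 to 2181 and 2675, and the IgG receptors Fcgr4 (0.96) and Fcgr3 (0.45) rose. Cd93 fell from 8754 and 10031 to 6122 and 5465. Of 18 TREM and CD300 receptors with their adaptors, 9 rose and 3 fell (median 0.23). Trem3 rose from 2415 and 2212 to 3360.3 and 3813, whereas the inhibitory receptor Lilrb4a fell from 2094 and 2235 to 1084 and 1065 (-1.01, SE 0.05, adjusted p = 0.000294). Genes of these families share sequence, so the split of reads among paralogs is uncertain.

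Cytokine and growth factor receptors fell in 12 of 27 cases and rose in 4 (median -0.17). The number lower was 6 without sgRosa26 library 1, 7 without sgRosa26 library 2 and 5 without guide 2. The G-CSF receptor Csf3r rose from 966 and 952 to 1579 and 1802, and Ifngr1, an interferon gamma receptor chain, from 9159 and 9420.4 to 12482 and 11819.9. The rises of Crlf2 (0.27) and Csf2ra (0.20), chosen after their values were seen, were lost without sgRosa26 library 1 (adjusted p = 0.0654 and 0.0934) or guide 2 (0.0831 and 0.0753). Il10rb fell from 1387 and 1384 to 1127 and 1111. Of the antigens used to mark leukemic stem cells and blasts, Cd34 fell from 14281 and 15407 to 10895 and 10125. Cd33 rose from 6279.9 and 6569 to 10686 and 12767. The groups did not overlap in either, as in 70.5% of all genes tested.

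Toll-like receptors and their adaptors, 23 measured, gave 6 rises and 7 falls with a median of 0.05. Cd180, a decoy relative of the lipopolysaccharide receptor, stood at 1868 and 2023 in the controls and fell to 713 and 513 (-1.68, SE 0.14, adjusted p = 0.000548). Tlr13, a sensor of bacterial ribosomal RNA, fell from 865 and 912 to 354 and 298, and the co-receptor Cd14 from 1549 and 1746 to 904 and 924. Irak3, an inhibitor of this pathway, rose from 1465 and 1647 to 2563 and 3052, and Tlr1 (0.82, chosen after its values were seen) rose. Inflammatory genes under NF-kB fell in 7 of 23 cases and rose in 3 (median 0.06). Without guide 2 these counts were 4 and 1, without sgRosa26 library 2 they were 4 and 2, and without guide 1 they were 5 and 6. The inflammasome sensor Nlrp3 fell from 1089 and 938 to 464 and 396 and Tnf from 616 and 539.5 to 321 and 329.6.

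Genes of antigen presentation fell in 10 of 16 cases and rose in 2, with a median of -0.21 with guide 1 and -0.32 with guide 2. Nlrc5, the activator of MHC class I genes, stood at 634 and 627 in the controls, at 278 with guide 1 and at 176 with guide 2. The class I gene H2-K1 fell from 6238 and 5973 to 4832 and 4332, the immunoproteasome subunit Psmb8 from 4453 and 4176 to 3310.1 and 2943 and the peptide transporter Tap2 from 4808 and 5081 to 4043 and 3912. The 2 risers, H2-Oa (0.46) and H2-DMb2 (1.14), were chosen after their values were seen and lost their calls without sgRosa26 library 2 (adjusted p = 0.0531 and 0.0598) or guide 2 (0.0941 and 0.103). Interferon-stimulated genes were split, 6 of 21 higher and 8 lower (median -0.14), and the number lower was 3, 2 and 2 without sgRosa26 library 1, sgRosa26 library 2 and guide 2. The number higher was 3 without sgRosa26 library 1 or guide 2. Mx1 fell from 31.6 and 31.4 to 10.7 and 9.69 (DESeq2 adjusted p = 0.0605). Nlrc3, a relative of Nlrc5 that restrains innate signaling, fell from 109 and 107 to 34.0 and 15.1.

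Genes tied to the MLL-AF9 program were mixed. The fusion's partner genes Kmt2a and Mllt3 rose, Kmt2a from 25070.0 and 23876 to 31806 and 36989 and Mllt3 from 2089 and 2059.7 to 2635 and 3079. Reads of the fusion's transcript and of the normal alleles cannot be told apart in these counts. Aff1, of the super elongation complex, rose from 8481 and 9313 to 11851 and 12869. In all, 5 of 21 genes of this group rose and 1 fell (median 0.04), and the rises of Kmt2a, Mllt3 and Aff1 held without any 1 library. The fall, of the methyltransferase gene Dot1l (-0.18, chosen after its values were seen), was lost without sgRosa26 library 1 (adjusted p = 0.0849), sgRosa26 library 2 (0.0623) or guide 2 (0.0811). Of 13 HOXA, MEIS and PBX genes, 3 rose and 1 fell, and the number lower was 3 without sgRosa26 library 1 and 0 without sgRosa26 library 2 or guide 2. Meis1 rose from 1017 and 982 to 1236 and 1347, the calls of Pbx3 and Pbx2 were lost without guide 2 (adjusted p = 0.0751 and 0.143), and Hoxa9 held 3614 and 4949 in the controls and 3914 and 4346 with the guides, with overlap. Myb rose from 23407 and 23726 to 28533 and 28515, but did not pass after quantile normalization (adjusted p = 0.0756).

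Myc and the genes of ribosome assembly fell. Myc itself stood at 5335 and 5276 in the controls and fell to 4256 and 3988 (-0.36, SE 0.04, adjusted p = 0.00158), while Mxi1, a MYC antagonist, rose from 2336 and 2408 to 3084 and 3516. All 36 measured MYC targets and nucleolar genes of ribosome biogenesis were lower, by a median of -0.28 with guide 1 and -0.36 with guide 2. Without 1 library this count was 26 to 35, and 26 without sgRosa26 library 1. Nucleolin, Ncl, fell from 40136 and 38019 to 30412 and 28821, the RNA helicase gene Ddx21 from 9916 and 9603 to 7693 and 7284 and the processome gene Utp20 from 4247 and 4323 to 3391 and 3180.3. Genes of the ribosome's own proteins did not follow, with 0 of 32 past the test in either direction by limma and a median of -0.01. At an unadjusted p under 0.05 there were 4 (Rpl7, Rps16, Rps2 and Rpl28), edgeR and DESeq2 called 0, and quantile normalization called 4 lower.

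Small falls ran through translation and protein folding. Of 25 initiation and elongation factors 17 fell and none rose (median -0.16), 8 without sgRosa26 library 1 or library 2 and 10 without guide 2. Eef1g fell from 12177 and 12277 to 9735 and 9209, and the cap-binding protein gene Eif4e from 3950.2 and 3859 to 3238 and 3313. Of 31 ATF4 targets, serine synthesis and tRNA synthetase genes 22 fell (median -0.28, 11 without sgRosa26 library 1), among them the amino acid transporter Slc7a1 (-0.37) and the glycyl-tRNA synthetase Gars (-0.42). Of 27 chaperones 21 fell and 1 rose (median -0.23), with 12 lower without sgRosa26 library 1. The chaperonin subunit Cct6a fell from 10403 and 10318 to 8559 and 8154. The unfolded protein response of the endoplasmic reticulum was less uniform. Of its 21 measured genes 6 fell, 2 rose and 13 did not pass (median -0.11). Edem1, which takes misfolded glycoproteins to degradation, fell from 26107 and 28159.7 to 18281 and 17648. The stress sensor Atf6 fell from 4062 and 3882 to 2940.3 and 2867.

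Part of the nucleotide and mitochondrial genes fell. Of 26 genes of purine and pyrimidine synthesis 14 fell and none rose (median -0.18). Adss, of AMP synthesis, fell from 7352 and 7205 to 5378 and 4892, and Cad, which starts pyrimidine synthesis, from 6502 and 6666 to 5347 and 5143. Of 32 mitochondrial ribosomal genes 15 fell (median -0.16), of 22 import genes 8 (median -0.11), and of 30 nuclear genes of oxidative phosphorylation 8 (median -0.08). Over all genes tested 15.1% were lower. Without sgRosa26 library 1, sgRosa26 library 2 or guide 2 each of these counts was smaller, as was that of all genes. For oxidative phosphorylation most calls were then lost, so its fall rests on few libraries. Mrps10 fell from 1296 and 1221 to 942 and 907, and the import receptor Tomm20 from 3829.6 and 3939 to 3235 and 3167. Of 30 proteasome genes 13 fell (median -0.12). Most of these calls were lost without sgRosa26 library 1, sgRosa26 library 2 or guide 2, so this fall rests on few libraries as well.

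Sugar metabolism was mixed, with 5 of 29 genes higher and 7 lower (median -0.06). Pfkfb4, which controls fructose 2,6-bisphosphate, rose from 397 and 453 to 856 and 1019.9, and its relative Pfkfb3 from 3164 and 3275 to 4439 and 5089.8. The oxygen sensor Egln3 fell from 4359.6 and 4379 to 3089.9 and 2830.3 and Ndrg1 from 752 and 847 to 475 and 443. Of 26 sterol and fatty acid genes 6 fell (median -0.13), 13 without sgRosa26 library 2 but 3 without sgRosa26 library 1 or guide 2. Among ABC transporters the neighbors Abcb1b, from 665 and 748 to 218 and 178, and Abcb4, from 62.3 and 53.3 to 15.2 and 11.8, fell together.

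Genes of proliferation and survival did not move one way. Of 42 genes of DNA replication and mitosis 12 rose and none fell (median 0.10), with Mki67 from 21502 and 20967 to 25344 and 26717 and the kinesin gene Kif11 at 0.22. The count was 5 without sgRosa26 library 1 and 3 without sgRosa26 library 2 or guide 2. Of 15 D cyclin and CDK inhibitor genes 5 fell and 3 rose (median -0.03). The D-type cyclin genes Ccnd1 and Ccnd2 fell, Ccnd1 from 6240.3 and 6089 to 2950.2 and 2197 and Ccnd2 from 6118 and 7903 to 4818 and 4485. The inhibitor genes Cdkn1a, from 6391 and 6684 to 4556 and 4722, and Cdkn2a, from 701 and 790.4 to 519 and 494, fell as well. The other calls, of genes chosen after their values were seen, depended on single libraries. The D cyclin gene Ccnd3 was called higher (0.31, from 4597 and 4948 to 5513 and 6326), lost without sgRosa26 library 1 (adjusted p = 0.0771). Cdkn1c (1.12) and Rbl1 (0.13), also called higher, were lost without any 1 library (adjusted p from 0.111 to 0.181 and from 0.0632 to 0.134). Cdk4 (-0.13), called lower, was lost without sgRosa26 library 1 (0.167), sgRosa26 library 2 (0.152) or guide 2 (0.198). Of 28 p53 targets 17 fell and 3 rose (median -0.22), 11 lower without sgRosa26 library 2 or guide 2, and 1 higher without sgRosa26 library 1 or guide 2.

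Of 15 measured BCL2 family genes 6 fell, 2 rose and 7 did not pass (median -0.18). The number lower was smaller without any 1 library. Bcl2, which encodes a survival protein, stood at 3237 and 3177 in the controls, at 1664 with guide 1 and at 1443 with guide 2 (-1.05, SE 0.07, adjusted p = 0.000294). Pmaip1, which encodes the opposing protein NOXA, fell from 2555 and 2523 to 1871 and 1913. Of 29 immediate early and ERK feedback genes 13 fell and 1, Spry2 (0.18, chosen after its values were seen), was called higher (median -0.25). That call was lost without any 1 library (adjusted p from 0.101 to 0.162). Fos fell from 672 and 571 to 381 and 363. Stat3 rose from 3391 and 3604 to 4432 and 5008.

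By number of normalized reads, the largest changes fell on a few genes. After Slpi, the falls were led by Hsp90ab1, at 66811 and 64799.8 and then 56328 and 53817, a call lost without sgRosa26 library 1 (adjusted p = 0.067) and after quantile normalization (0.233). Spp1, which encodes osteopontin, fell from 13830.3 and 14249.7 to 7090.3 and 7081. Osbpl8, a lipid transfer protein gene, fell from 18793 and 19578 to 10923 and 9703. The rises were led by S100a8 and S100a9, then BC100530 and Stfa1.

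The widest gaps between the guides were of both kinds. Above Ngp, Itgb2l, Mmp9 and Ltf stood Slc2a3, the glucose transporter GLUT3, at 20.8 and 45.0 in the controls, 55.5 with guide 1 and 170.2 with guide 2, which did not pass (adjusted p = 0.0578). In the other direction lay Nlrc3, Fgfbp3, Myadml2, Prune2 and Cpa3. Prune2 fell from 548 and 600.1 to 205 with guide 1 and 108 with guide 2, and Myadml2 from 76.1 and 84.7 to 35.8 and 17.2. Fgfbp3 held 62.3 and 53.3 in the controls and 62.7 with guide 1 but 29.1 with guide 2, and did not pass.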

How the data were processed

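Per the labels' protocols, polyA RNA of RN2c cells was made into libraries with a TruSeq v2 kit and sequenced. The submitters' processing notes name the tools HISAT2, featureCounts and DESeq2 and the builds hg19 and mm10. Tool versions, and whether counting used strand, were not given in the sources used here. All values the authors deposited are a signal: read counts per gene divided by a DESeq2 size factor. In all 4 libraries 100% of values were whole multiples of the value of 1 read (tolerance 0.1 read), which gave back the read counts; 0 columns were unmatched.

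The test was limma 3.58.1 with a mean-variance trend in R 4.3.3, two-sided, on log2(value + 1) for genes with a mean of at least 10, over the 4 libraries, with Benjamini-Hochberg adjustment over all 10956 genes and a threshold of 0.05. Alternatives used edgeR 4.0.16 and DESeq2 1.42.0 on the recovered counts. The fit was tested on simulated data. The change with each guide is given as a value. Leaving out 1 guide gives a fit of the other guide, 1 library, against both controls, which takes the lone library to vary like the controls. Positions come from GENCODE M21, promoters from RefSeq, searched with Python 3.11.15.

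Named were the MEF2, SIK and class IIa HDAC genes, the 12 rises and 12 falls with the largest change by the weaker guide (mean at least 50, groups apart), the 5 largest guide differences in each direction (mean at least 50), the 8 largest rises and falls in reads, up to 4 members of each list with the lowest p (all members of lists of at most 8), and the genes next to Mef2c. The members and lists were chosen with earlier results of these data known. Some genes that the rule names are not reported here.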

Additional observations from a re-analysis of the deposited data

How the results depend on the processing

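Of the 3442 genes past the test, 0 were called with the opposite sign under any alternative. The number past the test was 1628 without the mean-variance trend, 2255 by DESeq2 and 1610 at a threshold of 0.01, for the higher genes 887 without the trend and 879 at 0.01, and for the lower genes 741, 1051 by DESeq2 and 731 at 0.01. Genes past the test whose groups were also apart numbered 1628, 2255 and 1610 in the same settings, and 3885 with the replicate block. Leaving out 1 library gave 1818 to 3140 genes, 938 to 1636 higher and 880 to 1504 lower. The per-guide counts over 2-fold moved with the filter. With no filter and with a mean of at least 50 they were 439 and 111 (guide 1 higher), 557 and 89 (guide 1 lower), 818 and 176 (guide 2 higher), and 782 and 146 (guide 2 lower). With fixed outer bases of the MEF2 motif the shares were 0.278% of genes higher, 0.738% of genes lower and 0.427% of genes tested. With the replicate block the count was 3905, and 3431 of the 3442 were called. The replicate number of an sgMef2c library names its guide, and same-numbered libraries shared only a number (correlation of their deviations across 10956 genes 0.0514), so the libraries were not treated as paired. Of 235 named genes past the test, 51 did not pass without the trend, 12 by DESeq2, 0 by edgeR and 3 after quantile normalization. Leaving out 1 library, 7 (guide 1) to 27 (guide 2) did not pass. With 2 libraries a group, and 1 a guide, small changes rest on few values. The cause of these differences was not tested.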
